A study of Caenorhabditis elegans with 24 samples.

Results

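Whole Caenorhabditis elegans animals that carry the alg-1 allele ma447, labelled F180del, were set against wild type (WT, strain N2) by small RNA sequencing of total lysate. The comparison rests on 4 of the 24 libraries of the series, 2 per genotype, and covers all 437 mature microRNAs (miRNAs) in the deposited table. Of these, 382 had at least 1 read in the 4 libraries and 303 passed the filter on low counts and were tested. The study models human AGO1 mutations found in neurodevelopmental disorders and sequenced 4 such alleles, an alg-1 null and WT, each as total small RNA and as RNA co-precipitated with ALG-1 (IP). F180del and WT animals were grown on E. coli HB101 at 20 °C, synchronised as starved larvae and harvested after 45 h of feeding. Each library came from a population of animals, and the labels name 1 allele of F180del and do not say whether libraries 1 and 2 were separate cultures. The p-values therefore measure only how much libraries vary, and that variation may be technical. For total RNA the spread was estimated over all 12 total libraries of the series, those of the alleles V254I and H751L included. Other genotypes are set beside F180del where they bear on it: G199S (allele ma443) and the null (allele tm492), also 2 total libraries each.

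A miRNA is cut from a hairpin as a duplex of 2 arms, named 5p and 3p. An Argonaute protein such as ALG-1 keeps one arm, the guide, which pairs with messenger RNAs through its seed near the 5′ end, and the other arm, the passenger, is usually discarded. In worms ALG-1 and its relative ALG-2 carry most miRNAs, among them lin-4 and let-7, which time the larval stages. In the text below, the arm that gathered more reads when all 12 total libraries were summed is called the major arm and its partner the minor arm, for 189 hairpins with both arms named. The label need not hold in WT alone. Of 99 hairpins whose ratio of arms is tested below, 3 had more minor than major arm reads in both WT libraries. Levels are reads per 1000000 miRNA reads of a library (RPM), so a level is a share and not an absolute amount.

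The F180del libraries held 7987427 and 9335779 miRNA reads and the WT libraries 4927064 and 11269399. WT library 1 was thus the shallowest of the 4, with reads for 257 miRNAs. The other 3 had reads for 341 and 345 miRNAs (F180del) and 332 (WT library 2). Among miRNAs averaging at least 10 RPM, the libraries of one genotype differed by more than 2-fold in 65 of 181 for F180del and in 31 of 161 for WT. They differed by more than 5-fold in 11 miRNAs for F180del and 1 for WT. Markers expected in whole animals were present in all 4 libraries: muscle miR-1-3p, neuronal miR-124-3p and lsy-6-3p, glial miR-228-5p and intestinal miR-60-3p. No count of the alg-1 transcript can be had from miRNA reads, so the genotype was not checked against its gene.

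The same few miRNAs led both genotypes, in a different order. miR-58a-3p, the main worm relative of fly bantam, led both F180del libraries with 23.1% and 18.2% of reads and had 16.9% in each WT library. miR-1-3p had 17.9% and 12.5% of reads in F180del and led both WT libraries with 24.3% and 27.8%. Its groups did not overlap, but its log2 fold change of -1.25 ± 0.57 missed the threshold (standard error, SE; edgeR quasi-likelihood test, Benjamini-Hochberg adjusted p = 0.149). Among the other 8 most abundant WT miRNAs, miR-48-5p had 76064 and 72391 RPM in F180del against 42042 and 60024 RPM in WT. miR-71-5p, which promotes long life, had 59542 and 83384 RPM against 50608 and 46679 RPM. miR-56-3p was lower in both F180del libraries, at 25796 and 23488 RPM against 63523 and 35495 RPM in WT, and narrowly missed the threshold (adjusted p = 0.0621). miR-81-3p and miR-82-3p (bantam family), miR-228-5p, miR-44-3p and miR-45-3p did not pass either. In bulk animals, fewer cells of a type and less of a miRNA per cell cannot be told apart.

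At an adjusted p under 0.05, 47 of the 303 tested miRNAs differed between F180del and WT (15.5%), 34 higher (11.2%) and 13 lower (4.29%). In all 34 both F180del libraries lay above both WT libraries, and in all 13 both lay below. This separation was common, however: it held upwards for 44.6% of the tested miRNAs and downwards for 17.5%. The higher ones were mostly minor arms, 21 of 115 tested, with 12 of 161 major arms and 1 of 27 miRNAs with a single arm named. The 13 lower ones were all major arms. All minor arms together made only 0.505% and 0.391% of reads in WT, so a fall was harder to call for them. The median log2 fold change was 0.89 over minor arms and -0.24 over major arms, beside 0.13 over all tested. These values are relative to a scaling by trimmed means (TMM). With library totals in its place log2 fold changes were higher by a median of 0.50, 34 of the higher calls and 3 of the lower ones held, and the split was 47 higher to 3 lower.

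The calls depended on single libraries, most of all on those of WT. Without WT library 1, 1 of the 47 was still called (miR-236-5p), and without WT library 2, 13 of the 34 higher and none of the 13 lower ones were. Without F180del library 1, 31 higher and 4 lower ones held, and without F180del library 2, 27 higher and no lower ones held. All 47 kept their sign in each of these 4 fits. With only F180del and WT in the fit, 25 of the 47 were still called.

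**Figure D1:**
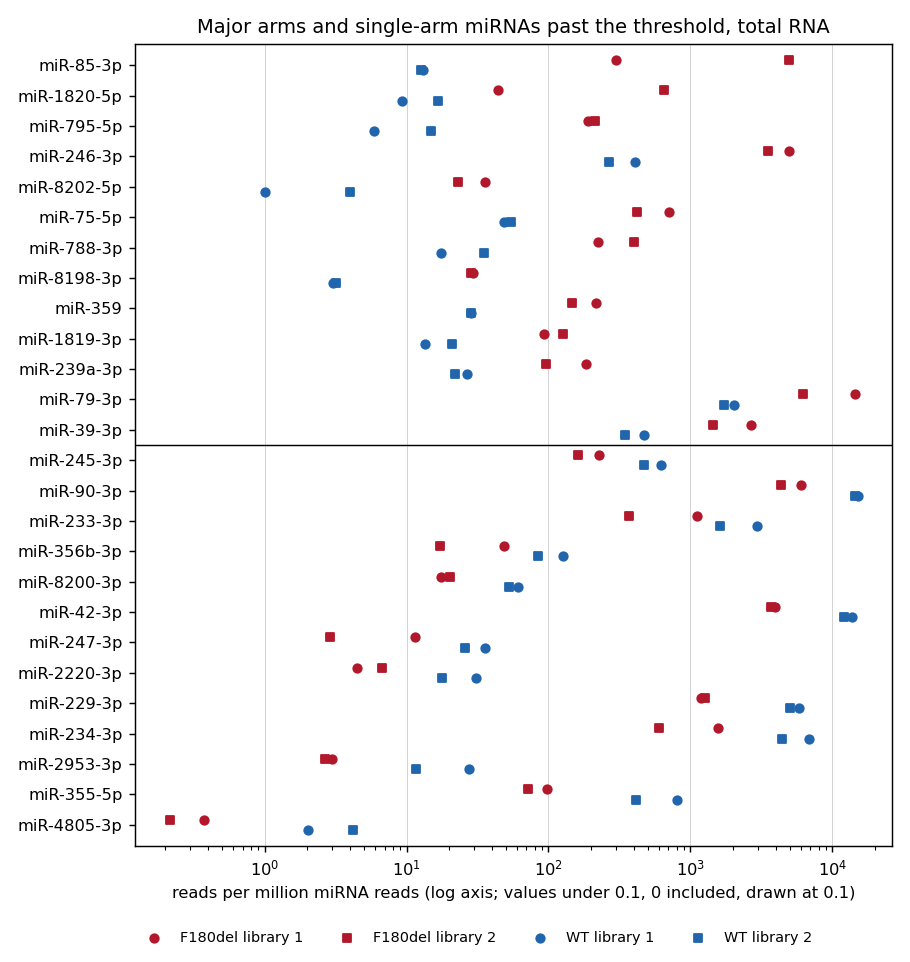
RPM (log axis) of the 26 major-arm and single-arm miRNAs past the threshold in total RNA, ordered by log2 fold change, with the 13 higher ones above the line. Red points are the F180del libraries and blue points the WT libraries; in every row the 2 colours do not overlap, and the red points of miR-85-3p, at 300.3 and 4948 RPM, and of miR-1820-5p lie far apart.

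Among the 13 major or single arms that rose in F180del, miR-85-3p had the widest change and the widest gap between libraries. It reached 300.3 and 4948 RPM in F180del, against 13.0 and 12.6 RPM in WT (7.01 ± 1.55 on the log2 scale, adjusted p = 0.0113). Its hairpin lies in the WBcel235 annotation on chromosome II, 8393553 to 8393658, plus strand, in an intron of F49E12.8 on the opposite strand. miR-246-3p, reported as a marker of longer life, was at 4927 and 3527 RPM in F180del against 406 and 266 RPM in WT (3.20 ± 0.58, adjusted p = 0.00481). The F180del libraries lay close together and far above both WT libraries. Its hairpin lies outside protein-coding genes (chromosome IV, 10940134 to 10940230, plus strand).

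miR-795-5p, a member of the let-7 seed family, was at 189 and 213 RPM in F180del against 5.89 and 14.9 RPM in WT (3.71 ± 0.81, adjusted p = 0.0105). miR-1820-5p was at 44.4 and 654 RPM against 9.34 and 16.7 RPM (4.04 ± 1.14, adjusted p = 0.03). F180del library 2 was by far the higher one, and the log2 fold change was 1.73 without it, no longer past the threshold. miR-75-5p was at 706 and 422 RPM against 48.7 and 54.8 RPM (2.99 ± 0.63). miR-788-3p was at 224 and 402 RPM in F180del against 17.5 and 35.3 RPM in WT (2.98 ± 0.82). In both, each F180del library lay above each WT library. In WT, miR-788-5p stood at 285% and 190% of miR-788-3p, so the arm called major was the lesser one there.

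The other 7 rose by smaller amounts or from lower levels. miR-8202-5p was at 35.6 and 23.2 RPM in F180del against 1.01 and 3.99 RPM in WT, and miR-8198-3p at 29.5 and 28.5 against 3.04 and 3.19 RPM. Neither had a read in the 4 IP libraries of F180del and WT. miR-359 was at 216 and 146 RPM against 28.4 and 28.3 RPM, miR-1819-3p at 92.5 and 127 against 13.6 and 20.9 RPM, and miR-239a-3p at 185 and 95.7 against 26.8 and 21.8 RPM. The partner arm miR-239a-5p, of the stress-linked miR-239 pair, did not pass, at 30.9 and 61.4 RPM in F180del against 31.1 and 33.5 RPM in WT. In both WT libraries miR-239a-5p was the more abundant arm, at 116% and 154% of miR-239a-3p. miR-79-3p was the most abundant miRNA that rose. It was at 14342 and 6239 RPM in F180del against 2015 and 1717 RPM in WT (2.04 ± 0.63, adjusted p = 0.0416). miR-39-3p, of the embryonic miR-35 family, was at 2672 and 1434 RPM against 469.7 and 348 RPM (1.90 ± 0.58).

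**Figure D2:**
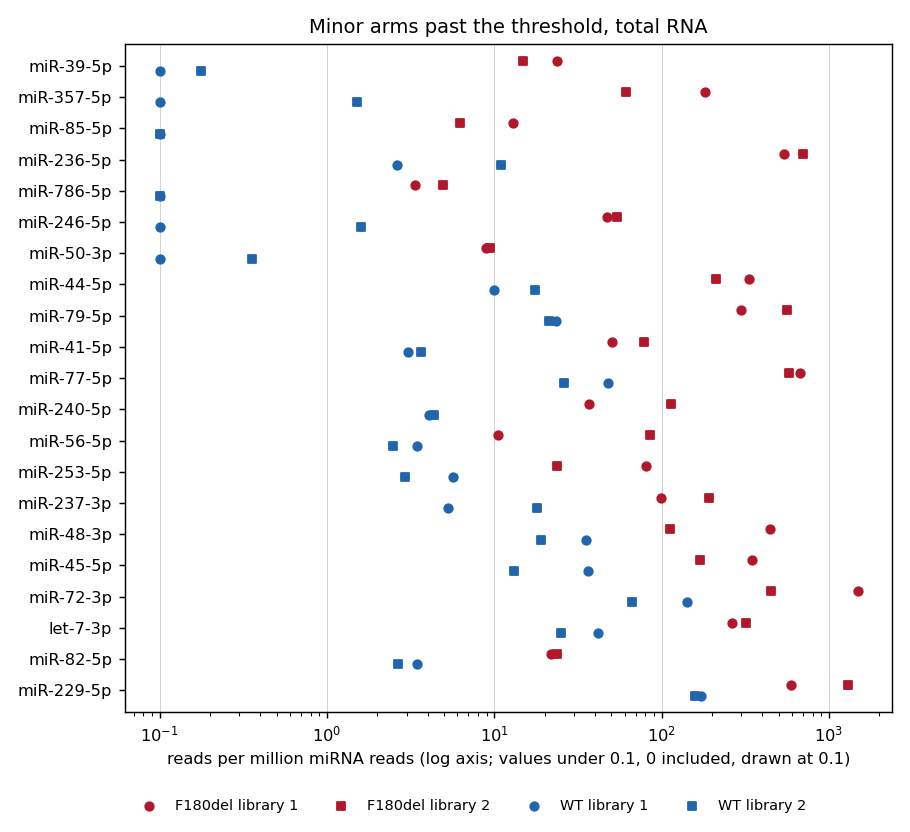
RPM (log axis) of the 21 minor arms past the threshold in total RNA, all higher in F180del (red) than in WT (blue), ordered by log2 fold change. WT values of miR-85-5p and miR-786-5p lie at the left edge, since the 2 WT libraries together held 1 read of each, and a value of 0 is drawn at 0.1.

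Of the 21 minor arms that rose, 16 were 5p arms, out of 78 minor 5p arms tested, and 5 were 3p arms, out of 37. miR-236-5p stood out by its level. It was at 542 and 696 RPM in F180del and at 2.64 and 10.9 RPM in WT (5.91 ± 0.88, adjusted p = 0.00206). It was the one miRNA called under each of the 11 alternative settings, with log2 fold changes from 5.35 to 7.74. Its hairpin lies outside protein-coding genes on chromosome II, 7030180 to 7030277, minus strand.

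miR-357-5p was at 183 and 61.5 RPM in F180del and at 0 and 1.51 RPM in WT (6.67 ± 1.68, adjusted p = 0.0191). miR-246-5p, the partner of miR-246-3p, was at 47.3 and 54.0 RPM against 0 and 1.60 RPM (5.23 ± 1.13). In both, WT library 1 had no read. Their size in fold thus rests on WT library 2.

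For 4 minor arms the WT libraries together held 1 to 4 reads, so the fitted fold change depends on a small constant added to the counts and a ratio of pooled RPM is given in its place. miR-39-5p was at 23.5 and 14.9 RPM in F180del against 0 and 0.177 RPM in WT, or 327 reads in F180del and 2 in WT, a ratio of 153 (95% exact interval 42.0 to 1268). miR-85-5p reached 12.9 and 6.21 RPM in F180del against 0 and 0.0887 RPM in WT, or 161 reads in F180del and 1 in WT, a ratio of 151 (26.6 to 5982). miR-786-5p, the partner of a miRNA that sets the rhythm of defecation, was at 3.38 and 4.93 RPM in F180del against 0 and 0.0887 RPM in WT, or 73 reads in F180del and 1 in WT, a ratio of 68.3 (11.9 to 2732). In all of these WT library 1 had no read. miR-50-3p was at 8.89 and 9.43 RPM in F180del against 0 and 0.355 RPM in WT, or 159 reads in F180del and 4 in WT, a ratio of 37.2 (14.2 to 138). These intervals cover counting error only, and all 4 lower bounds lie above 11.

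Among minor arms with more reads, miR-44-5p was at 333 and 211 RPM in F180del against 9.95 and 17.5 RPM in WT (3.82 ± 0.70). miR-79-5p was at 297 and 558 RPM against 23.3 and 21.1 RPM (3.71 ± 0.72). miR-41-5p, the partner of an embryonic miRNA, was at 50.6 and 78.2 RPM against 3.04 and 3.64 RPM (3.71 ± 0.70). Each lay well apart from WT in both F180del libraries. miR-77-5p was at 672 and 575 RPM in F180del against 47.5 and 26.2 RPM in WT (3.62 ± 0.69). let-7-3p, the partner of the late larval timer let-7-5p, was at 265 and 321 RPM against 41.8 and 25.0 RPM (2.64 ± 0.69). miR-72-3p was at 1483 and 450.4 RPM against 142 and 66.6 RPM (2.84 ± 0.73). miR-72-3p differed more than 3-fold between the F180del libraries, while miR-77-5p and let-7-3p did not.

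The remaining minor arms that rose were miR-240-5p (3.55), miR-56-5p (3.39), miR-253-5p (3.23), miR-237-3p (3.03), miR-82-5p (2.40) and miR-229-5p (1.96), with log2 fold changes in brackets, together with miR-48-3p and miR-45-5p. miR-48-3p was at 447 and 113 RPM in F180del against 35.3 and 19.1 RPM in WT, and miR-45-5p at 348 and 169 RPM against 36.3 and 13.0 RPM. The F180del libraries differed nearly 4-fold from each other for miR-48-3p. miR-56-5p was uneven, at 10.5 and 85.7 RPM in F180del against 3.45 and 2.48 RPM in WT. miR-240-5p and miR-786-5p come from neighbouring hairpins on chromosome X. miR-48-3p and miR-237-3p are the partners of heterochronic miRNAs, miR-48-5p of the let-7 family and miR-237-5p of the lin-4 family. Neither partner passed, with log2 fold changes of 0.03 ± 0.77 and -0.24 ± 0.58.

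Of these 21 minor arms, the major arm of the hairpin rose with it in 4 (mir-39, mir-79, mir-85 and mir-246), fell in 1 (mir-229) and was not called in 16. The median log2 fold change of the 21 major arms was 0.54, with a range from -2.65 to 7.01.

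All 13 miRNAs that fell were major arms. The 2 most abundant were miR-90-3p and miR-42-3p. miR-90-3p, on the stress and lifespan list, was at 6001 and 4319 RPM in F180del against 15172 and 14417 RPM in WT (-1.99 ± 0.55, adjusted p = 0.0281). miR-42-3p, of the embryonic miR-35 family, was at 3939 and 3674 RPM against 13685 and 12129.8 RPM (-2.25 ± 0.53, adjusted p = 0.0148). The 2 libraries of each genotype lay close together for both miRNAs.

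miR-229-3p was at 1182 and 1266 RPM in F180del against 5825 and 5066 RPM in WT (-2.65 ± 0.73, adjusted p = 0.0281). miR-234-3p, a neuronal miRNA, was at 1568 and 600.3 RPM against 6892 and 4430.1 RPM (-2.78 ± 0.71, adjusted p = 0.0211). miR-233-3p was at 1111 and 372 RPM against 2966 and 1618 RPM (-2.01 ± 0.65). F180del library 2 was the lower one for miR-234-3p and miR-233-3p, by more than 2-fold.

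miR-355-5p was at 97.9 and 72.1 RPM in F180del against 807 and 413 RPM in WT (-3.28 ± 0.82, adjusted p = 0.0191). miR-245-3p was at 227 and 162 RPM against 617 and 468 RPM (-1.94 ± 0.60). miR-356b-3p was at 48.5 and 17.4 RPM against 127 and 85.1 RPM (-2.09 ± 0.68). The remaining 5 were under 75 RPM in any of the 4 libraries. miR-8200-3p was at 17.5 and 20.2 RPM in F180del against 61.3 and 52.4 RPM in WT. miR-247-3p was at 11.5 and 2.89 RPM against 35.7 and 26.0 RPM. miR-2220-3p was at 4.51 and 6.75 RPM against 30.6 and 17.7 RPM. miR-2953-3p, from an intron of F41G3.5, had 24 and 25 reads in F180del against 136 and 132 reads in WT. miR-4805-3p was at 0.376 and 0.214 RPM against 2.03 and 4.17 RPM. The level of miR-4805-3p in F180del amounted to 3 and 2 reads.

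Most families kept most of their members below the threshold, as did the tested miRNAs as a whole, of which 15.5% were called. In the let-7 family 1 of 7 rose (miR-795-5p), and the median log2 fold change was 0.03, beside 0.13 over all miRNAs. let-7-5p was at 11347 and 17299.9 RPM in F180del against 5617 and 7798 RPM in WT (adjusted p = 0.681). miR-84-5p was at 3055 and 20073 RPM against 1497 and 1949 RPM (adjusted p = 0.154). The F180del libraries differed more than 6-fold from each other for miR-84-5p. The family's summed share of reads was 9.43% and 11.3% in F180del and 5.36% and 7.27% in WT. Neither member of the lin-4 family passed. lin-4-5p was at 4757 and 2555 RPM in F180del against 9846 and 4255 RPM in WT, where the groups overlapped.

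In the miR-35 family 1 of 8 rose, 1 fell and 6 did not pass. With RLE factors, and likewise with library totals, 3 of the 8 rose and 1 fell. miR-36-3p averaged 195 ± 6.25 RPM in F180del and 38.9 ± 4.96 RPM in WT (SD, n = 2 each), with an adjusted p of 0.0502 by edgeR, just short of the threshold. miR-40-3p was at 6648 and 2369.6 RPM against 2158 and 1233 RPM and miR-35-3p at 4613 and 4718 RPM against 2279 and 1372 RPM. The members differ in where they are encoded. mir-35 to mir-41 lie in 1 cluster on chromosome II (11537608 to 11538404, plus strand), and the median log2 fold change of their major arms was 1.62. mir-42 lies apart with mir-43 and mir-44 (11889811 to 11890118, plus strand). There miR-42-3p fell, miR-44-3p was at 11449 and 5530.4 RPM in F180del against 27554 and 15090.3 RPM in WT (-1.74 ± 0.59, adjusted p = 0.0543), and miR-43-3p was at 5.76 and 5.46 against 4.87 and 7.37 RPM. Family members with near-identical sequences can share reads, so single members are uncertain.

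In the miR-44 family 1 of 4 fell (miR-247-3p) and the median log2 fold change was -1.74. miR-44-3p and miR-45-3p had nearly the same count in each library and cannot be told apart as counted. miR-61-3p was at 7263 and 3859.7 RPM in F180del against 11958 and 6223 RPM in WT (-1.12 ± 0.59, adjusted p = 0.212). With size factors of the RLE kind 3 of the 4 fell, and with library totals none did. In the miR-63/64 family 1 of 5 rose, miR-229-5p. miR-66-5p of that family was at 8600.3 and 62812 RPM in F180del against 2032 and 6607 RPM in WT. It is the family's most uneven member and did not pass (adjusted p = 0.19). miR-65-5p was at 27828 and 41698 RPM against 19782 and 21216 RPM and miR-64-5p at 9963 and 11345 RPM against 7753 and 9736 RPM.

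No member passed in 4 other families. In the miR-51 family, needed for attachment of the pharynx, all 6 members missed the threshold. Their summed share was 5.85% and 5.70% of reads in F180del and 9.64% and 8.38% in WT. miR-51-5p was at 14952 and 5895 RPM in F180del against 17458 and 16969 RPM in WT, and miR-55-3p at 12785 and 14055 RPM against 13899.6 and 26249 RPM. The 4 bantam relatives on the list together held 33.7% and 31.9% of reads in F180del and 25.6% and 26.2% in WT. Their median log2 fold change after TMM scaling was -0.10. Among them miR-80-3p was at 9164 and 36117 RPM in F180del against 2599 and 9698 RPM in WT, with overlapping groups. The hairpins mir-58b and mir-58c were not on the list, and neither of their 2 tested arms was called. In the miR-2 family all 4 members missed the threshold, with miR-250-3p at 1091 and 1337 RPM against 385 and 452 RPM, miR-2-3p at 269 and 524 RPM against 157 and 274 RPM and miR-797-5p at 21.3 and 76.9 RPM against 7.10 and 7.63 RPM. In the miR-72 family all 3 did, with miR-72-5p at 9106 and 9589.8 RPM in F180del against 8282 and 6966 RPM in WT, miR-73-3p at 2712 and 4081 RPM against 1710.2 and 3820.1 RPM and miR-74-3p at 595 and 282 RPM against 574 and 724 RPM. The medians of the let-7, miR-51, bantam, miR-72 and stress lists lie within 0.3 of 0, and those of the miR-51, bantam, miR-72 and stress lists change sign with library totals, as does that of the intronic list described next; the stress list also changes sign with RLE factors.

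**Figure D3:**
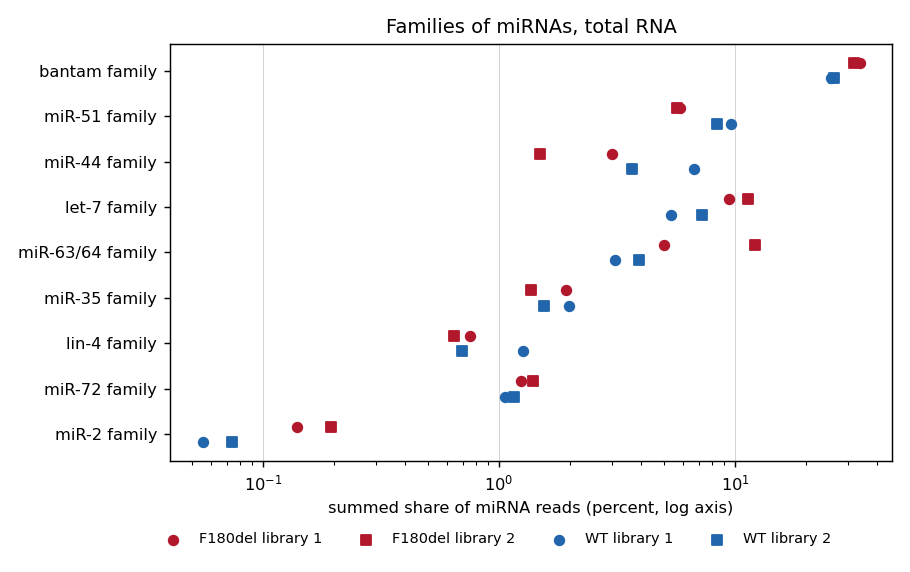
Summed share of miRNA reads (percent, log axis) of 9 seed families in the F180del (red) and WT (blue) total libraries. The miR-51 family lies lower in F180del (5.85% and 5.70%, against 9.64% and 8.38% in WT) and the bantam family higher (33.7% and 31.9%, against 25.6% and 26.2%), as untested shares; after TMM scaling the bantam median log2 fold change was -0.10.

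Among 9 tissue-restricted miRNAs 1 fell, neuronal miR-234-3p, and the list's median log2 fold change was -1.39. With RLE factors 2 of the 9 fell. miR-1-3p of muscle is given above. lsy-6-3p, which sets the identity of a taste neuron, was at 33.7 and 29.6 RPM in F180del against 81.2 and 70.7 RPM in WT (-1.75 ± 0.58, adjusted p = 0.0507). miR-228-5p of glia was at 30402 and 46199 RPM against 31506 and 51419 RPM, with overlapping groups. miR-60-3p of the intestine was at 5110.2 and 5011 RPM in F180del against 3814 and 4340.2 RPM in WT (adjusted p = 0.89). Of 10 stress and lifespan miRNAs, 2 rose (miR-85-3p and miR-246-3p) and 1 fell (miR-90-3p). With library totals 2 rose and none fell. miR-238-3p, reported in the stress response, was at 6407 and 5117 RPM in F180del against 4408 and 4797 RPM in WT. Of 4 arms listed as intronic mirtrons 2 were tested and none passed: miR-62 was at 1026 and 217 RPM in F180del against 466 and 470.5 RPM in WT, and miR-1020-3p at 93.5 and 86.5 RPM against 109 and 95.7 RPM.

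Minor arms took up a larger share of reads in F180del. All minor arms together made 1.65% and 1.27% of reads in the F180del libraries and 0.505% and 0.391% in the WT libraries, with means of 1.46% ± 0.266 and 0.448% ± 0.0803 (SD, n = 2 each). The F180del mean was 3.27 times that of WT. The exact two-sided permutation test gave p = 0.333, the smallest that 2 against 2 libraries allow. Of 155 minor arms with a read in the 4 libraries, 120 had a higher mean RPM in F180del. The same count was not made over all miRNAs. With library totals, the scale of RPM, the median log2 fold change over all tested miRNAs was positive too, at 0.64. A few abundant hairpins supplied most of the share. miR-80-5p made 20.6% of the minor arm reads in F180del and 20.9% of those in WT, and it did not pass by itself (adjusted p = 0.133). miR-58a-5p, the minor arm of the most abundant F180del miRNA, was at 2866 and 904 RPM in F180del against 445 and 251 RPM in WT, and missed the threshold too (adjusted p = 0.0651). miR-77-5p and miR-236-5p, which did pass, made 4.26% and 4.23% of the minor arm reads in F180del and 0.822% and 0.151% of those in WT.

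Apart from a constant of 0.5 added to each count, the ratio of minor to major arm within a hairpin does not depend on library scaling. It was tested in 99 hairpins whose minor arm averaged at least 10 reads over the total libraries. In 12 of them the ratio rose in F180del and in none did it fall (limma, 12.1% called; 33 at an unadjusted p under 0.05). With only F180del and WT in the fit, none of the 12 passed. The median log2 change of the ratio was 1.43, and it was above 0 in 67 hairpins. In mir-236 the minor arm stood at 133% and 412% of the major arm in F180del, against 0.519% and 2.23% in WT (7.74 ± 1.25, adjusted p = 0.0046). The arm that is minor over the series was thus the more abundant one in both F180del libraries. miR-236-3p itself, at 407 and 169 RPM in F180del against 509 and 489.6 RPM in WT, did not pass (adjusted p = 0.351).

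In mir-229 both arms were called in total RNA, in opposite directions. The minor arm stood at 49.9% and 103% of the major arm in F180del against 2.94% and 3.11% in WT (4.57 ± 0.92, adjusted p = 0.0148). In the ALG-1 IP the same ratio was lower in F180del, at 253.8% and 273.1% against 651.1% and 1018.4% in WT. The arm called minor, miR-229-5p, was thus the more abundant one in the IP of both genotypes. This difference of the ratio in IP was not tested. mir-229 lies in an intron of gcn-1 (chromosome III, 2172452 to 2172566, plus strand), next to mir-64, mir-65 and mir-66. In mir-44 the ratio was 2.91% and 3.81% in F180del against 0.0361% and 0.116% in WT (5.68 ± 0.76, adjusted p = 0.00164). In mir-45 it was 3.03% and 3.05% against 0.132% and 0.0864% (4.83 ± 0.65). The major arms of mir-44 and mir-45 had nearly the same count in each library, so both ratios divide by what may be the same reads and are not separate evidence. In mir-90 it was 1.94% and 2.02% in F180del against 0.157% and 0.127% in WT (3.81 ± 0.51, adjusted p = 0.00164). The F180del libraries lay within a factor of 1.4 of each other in these last 3 hairpins. In mir-50 the ratio was 0.411% and 0.243% in F180del against 0% and 0.00976% in WT, and in mir-39 it was 0.881% and 1.04% against 0% and 0.0510%. The ratio in mir-74 was 1.18% and 1.86% in F180del against 0% and 0.196% in WT. In mir-50, mir-39 and mir-74, WT library 1 had no minor arm read, so its tested value rests on the added constant and on depth. miR-74-5p by itself did not pass (adjusted p = 0.212 by edgeR).

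The other 4 hairpins were mir-235, whose major arm answers to food, mir-237, mir-51 and mir-72. Their log2 changes of the ratio were 2.63 ± 0.59, 3.55 ± 0.72, 2.32 ± 0.57 and 2.77 ± 0.75. Among the 12 hairpins the minor arm was called higher by itself in 8, and the major arm was called lower in 2 (mir-90 and mir-229). Of these 12 hairpins, 4 still passed without WT library 1 (mir-236, mir-44, mir-45 and mir-90), 5 without F180del library 2 and 6 without F180del library 1.

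**Figure D4:**
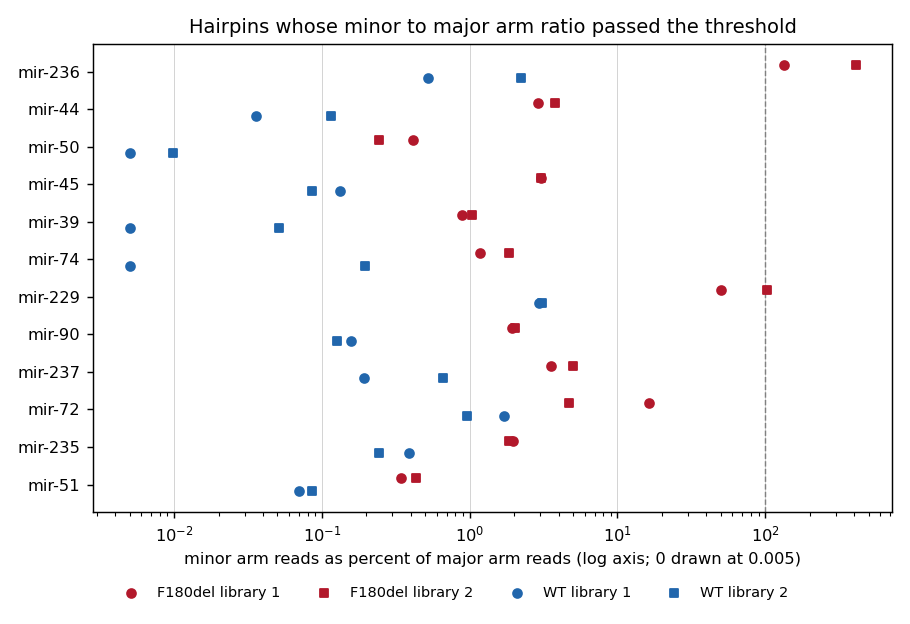
Minor arm reads as a percent of major arm reads (log axis) in the 12 hairpins whose ratio passed the threshold, for F180del (red) and WT (blue) total libraries. The dashed line marks 100%, which mir-236 passes in both F180del libraries, at 133% and 412%, and in neither WT library.

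The IP libraries are a second readout of the same miRNAs that the total comparison does not use. The total libraries are labelled input in the deposited counts, so IP and total libraries of the same number may come from the same lysate. The labels do not settle this, and a like change in IP is therefore not independent evidence. Of the 34 miRNAs higher in total RNA, 31 were tested in IP and 26 were also higher in the F180del IP than in the WT IP, none lower. Over all 269 miRNAs tested in IP, 87 were called (32.3%), 23.8% were higher and 8.55% lower. Of the minor arms higher in total RNA, 20 of the 20 tested were also higher in IP, against 5 of 10 major arms. The median log2 fold change of these 20 in IP was 5.32. It was 1.84 over all minor arms tested in both fractions and -0.32 over all such major arms. Some of the 20 had almost no WT IP reads, such as miR-85-5p (0 and 0 RPM) and miR-82-5p (0.253 and 0.161 RPM). Such arms enter the IP test only through other libraries where they are high, so the 20 of 20 is not separate support. miR-357-5p reached 291 and 233 RPM in the F180del IP against 0.338 and 1.13 RPM in the WT IP. miR-246-3p was at 2595 and 1789.7 RPM against 109 and 121 RPM (3.58 ± 0.35, adjusted p = 8.87e-05). For miR-85-3p the F180del IP held 1443 and 3152 RPM, against 63.5 and 38.9 RPM in the WT IP. The IP libraries of the alg-1 null still held 9889892 and 4667753 miRNA reads, with reads for 153 and 232 miRNAs. IP levels can thus include background, which was not subtracted.

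Of the 13 miRNAs lower in total RNA, 12 had a negative log2 fold change in IP, of which 3 passed: miR-234-3p (-2.06 ± 0.28), miR-90-3p (-1.77 ± 0.26) and miR-356b-3p (-1.72 ± 0.41). miR-42-3p, lower in total RNA, held 1997 and 1618 RPM in the F180del IP against 2101 and 1552 RPM in the WT IP, which did not pass (adjusted p = 0.139). The exception was miR-229-3p, which fell in total RNA and rose in IP, at 802 and 692 RPM in F180del against 75.5 and 58.4 RPM in WT (2.82 ± 0.62, adjusted p = 0.00542). The difference between the IP and the total change was tested as an interaction over all 24 libraries and passed in 7 of 315 miRNAs (2.22%), 4 with a positive difference (1.27%) and 3 with a negative one (0.952%). Of the 47 called in total RNA it passed in 4: miR-229-3p, miR-795-5p, miR-1820-5p and miR-72-3p. The fit treated all libraries as separate and did not pair IP and total libraries of the same number. No interaction was called when any 1 of these 4 libraries was left out: IP library 1 or total library 2 of F180del, and IP library 1 or total library 1 of WT.

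**Figure D5:**
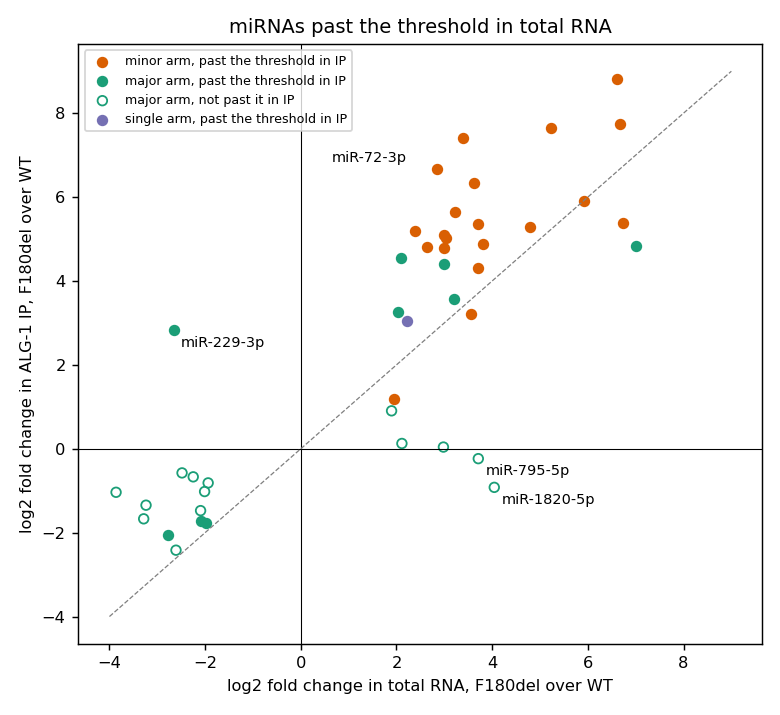
Log2 fold change in ALG-1 IP (vertical) against that in total RNA (horizontal), F180del over WT, for the 44 miRNAs past the threshold in total RNA and tested in IP. Minor arms (orange) lie in the upper right, 20 of 20 past the threshold in IP, a count that the filter on low counts favours. miR-229-3p is the 1 point in the upper left. The dashed line marks equal changes, and names mark the 4 miRNAs whose changes differed.

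Set directly against G199S in total RNA, F180del differed in 6 of 303 miRNAs (1.98%), 1 higher (0.33%) and 5 lower (1.65%). Of the 5 lower ones, 4 were members of the mir-35 to mir-41 cluster. miR-35-3p was at 4613 and 4718 RPM in F180del against 50965 and 39571 RPM in G199S (-3.56 ± 0.56, adjusted p = 0.00185). miR-37-3p was at 976 and 1171 RPM against 11193 and 12907 RPM (-3.81 ± 0.67). miR-39-3p (-3.01 ± 0.60) and miR-36-3p (-2.81 ± 0.62) were also lower in F180del than in G199S, as was miR-790-3p (-3.03 ± 0.71). miR-8200-3p was at 17.5 and 20.2 RPM in F180del and had 1 read in each G199S library. With 329 reads in F180del and 2 in G199S, the ratio of pooled RPM was 171 (95% exact interval 46.9 to 1416, counting error only; adjusted p = 0.000346 by edgeR). The count of 6 was 1 or 2 without F180del library 1 or either G199S library, 14 with DESeq2 and 22 with only these 2 genotypes in the fit.

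Set directly against the null, F180del differed in 10 of 303 miRNAs (3.3%), 7 higher (2.31%) and 3 lower (0.99%). miR-236-5p was at 542 and 696 RPM in F180del against 20.9 and 28.5 RPM in the null (4.26 ± 0.81, adjusted p = 0.00993). miR-79-3p was at 14342 and 6239 RPM against 1299 and 1784 RPM (2.44 ± 0.64). miR-799 was at 125 and 67.2 RPM in F180del against 2.29 and 1.39 RPM in the null (5.37 ± 0.86), and miR-784-5p at 18.3 and 23.9 RPM in F180del against 0.135 and 0.617 RPM in the null, where it had 5 reads in all (ratio of pooled RPM 59.2, 95% exact interval 25.2 to 184). In WT, miR-799 stood at 68.4 and 52.2 RPM and miR-784-5p at 20.1 and 15.7 RPM, and neither differed from F180del at the threshold. miR-788-5p, miR-785-3p and miR-255-3p were also higher in F180del than in the null (3.83 ± 0.82, 2.77 ± 0.70 and 2.70 ± 0.64). Lower in F180del than in the null were miR-229-3p (-2.83 ± 0.74), miR-245-3p (-2.36 ± 0.61) and miR-232-5p (-2.75 ± 0.69). Leaving out null library 1 gave 3 calls, leaving out F180del library 1 gave 19 and library 2 gave 17, and DESeq2 called 53.

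The comparisons of F180del, G199S and the null with WT share the WT libraries, so their own values are given side by side without a count of what they share. miR-246-3p had a log2 fold change of 3.20 ± 0.58 in F180del, 2.48 ± 0.56 in G199S and 1.91 ± 0.55 in the null, each over WT (adjusted p = 0.00481, 0.00927 and 0.0422). miR-236-5p had 5.91 ± 0.88 in F180del, 5.45 ± 0.86 in G199S and 1.66 ± 0.74 in the null. Its value in the null did not pass (adjusted p = 0.165 by edgeR). miR-795-5p had 3.71 ± 0.81 in F180del, 2.60 ± 0.77 in G199S and 1.22 ± 0.74 in the null, where it did not pass (adjusted p = 0.324). miR-79-3p had 2.04 ± 0.63 in F180del, -0.25 ± 0.61 in G199S and -0.40 ± 0.61 in the null, the last 2 not past the threshold (adjusted p = 0.841 and 0.732). miR-42-3p had -2.25 ± 0.53 in F180del, -0.36 ± 0.51 in G199S and -0.88 ± 0.51 in the null. Its values in G199S and the null did not pass (adjusted p = 0.688 and 0.307).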

How the data were processed

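Small RNA libraries (NEXTflex kit, Illumina sequencing, per the labels' protocols) were deposited as whole read counts per mature miRNA and precursor. Per the submitters' processing notes, Bowtie 1.2.2, FastQC 0.11.8, DESeq2 and cutadapt were named, with no role stated. Build, annotation, strand setting and the fate of reads matching several miRNAs were not given in the sources used here. Further workbook sheets with read counts and RPM were left out, as were 48 columns whose names match no label. Of 450 rows, 13 repeats of a mature name were removed, keeping the row with most reads.

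The main test was the quasi-likelihood F-test of edgeR 4.0.16 (run in R 4.3.3 after filterByExpr and TMM) on counts of the 12 total libraries, the 12 IP libraries or all 24, with Benjamini-Hochberg adjustment and a threshold of 0.05. Ratios of arms used limma 3.58.1 (pseudocount 0.5). For edgeR, SE is the log2 fold change divided by the square root of F. Alternatives were RLE factors, library totals, no filter, DESeq2 1.42.0, only the compared groups, all precursor rows, a replicate block, other arm settings and each library left out. Scripts were tested on simulated data. Named were all miRNAs past the threshold in a total RNA contrast, called members of 12 lists with up to 3 further members by level, the 10 most abundant in WT and 8 hairpins by size of change. The other 4 hairpins, the remaining partner arms, miR-43-3p, lsy-6-3p, miR-58a-5p and miR-80-5p, and the miRNAs of the closing section were named after their values were seen. Members and lists were chosen with earlier results of these data known. Hairpin positions are from Ensembl 115 (WBcel235), with 247 of 248 matched by name. No miRNA sequence was in the files used, so none is shown.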

Additional observations from a re-analysis of the deposited data

Results flagged for a closer look

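For 7 miRNAs the change between F180del and WT differed between ALG-1 IP and total RNA by a test of that difference (edgeR interaction, adjusted p under 0.05, IP change minus total change on the log2 scale). miR-229-3p had a difference of 4.73 ± 0.95 (adjusted p = 0.00958), from a higher level in the F180del IP and a lower one in F180del total RNA. miR-795-5p had a difference of -4.66 ± 0.88 (adjusted p = 0.00958): it was at 189 and 213 RPM in F180del total RNA against 5.89 and 14.9 RPM in WT, and at 519 and 362 RPM in the F180del IP against 366 and 292 RPM in the WT IP. miR-1820-5p had a difference of -5.91 ± 1.37 and was at 136 and 393 RPM in the F180del IP against 280.3 and 344 RPM in the WT IP. miR-797-5p had a difference of -5.36 ± 1.10, at 92.6 and 72.5 RPM in the F180del IP against 368 and 185 RPM in the WT IP. miR-72-3p had a difference of 3.18 ± 0.82, with a larger rise in IP than in total RNA. miR-790-3p had a difference of 4.18 ± 1.05, and miR-87-5p one of 5.00 ± 1.29, both at under 10 RPM in WT total RNA and under 1 RPM in the WT IP, where each had 4 reads in all. Each group held 2 libraries per fraction, and none of the 7 was called when F180del IP library 1, F180del total library 2, WT IP library 1 or WT total library 1 was left out.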

How the results depend on the processing

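No miRNA or hairpin value called in a main fit changed sign under any alternative. Of 1840 recomputed values of these calls, 1391 stayed past the threshold and 449 did not. Values that were not called in a main fit are not part of this count. For F180del against WT in total RNA, 12 of the 47 calls passed under 10 or more of the 11 alternatives, and the 13 lower ones under 4 to 8. The 47 calls became 80 with DESeq2, 25 with only the compared groups and 1 to 49 with one library left out. Against G199S, 6 became 14 with DESeq2, 15 without the filter, 22 with only the compared groups and 1 to 4 with one library left out. Against the null, 10 became 53 with DESeq2, 24 with RLE factors, 32 with all precursor rows, 27 with library totals, 22 without the filter and 3 to 19 with one library left out. In IP, 87 became 138 with only the compared groups and 39 to 62 with one library left out. The 7 interaction calls became 0 to 6 with one library left out. The 12 hairpins became 19 with a minimum mean of 50 reads, 0 with only the compared groups and 5 to 12 with one library left out. The share difference of 1.01 percentage points was 0.826 to 1.203 with one library left out, 0.807 without mir-80 and 0.937 without mir-229, the last chosen after seeing the data. Beyond fits with fewer libraries, the cause of these shifts was not tested.

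Whether replicate numbers pair the libraries is not settled. Deviations of same-numbered libraries correlated at 0.291 for F180del and WT, and at -0.318 to 0.611 over the 15 genotype pairs. With the replicate block, calls against WT numbered 62, against G199S 8, against the null 16, in IP 91, interactions 7 and hairpins 26. Depth limits low arms: 3 reads are 0.609 RPM in WT library 1 and 0.266 in library 2.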

Other observations

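Some miRNAs differed more between the 2 F180del libraries than between genotypes and did not pass. miR-46-3p was at 11377 and 1988 RPM in F180del against 22263 and 10399.8 RPM in WT. miR-55-5p was at 126 and 19.5 RPM against 14.4 and 11.4 RPM and miR-41-3p at 119.9 and 20.5 RPM against 21.3 and 14.5 RPM. In the opposite direction, F180del library 2 was the higher one for miR-1829c-5p, at 17.5 and 106 RPM in F180del against 5.89 and 16.1 RPM in WT.

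By chromosome (WBcel235, hairpins matched by name), called miRNAs numbered 10 higher and 5 lower of 56 tested on chromosome II, 10 and 3 of 92 on X, 5 and 0 of 50 on IV, 4 and 1 of 34 on I, 1 and 3 of 37 on III and 3 and 1 of 32 on V. Over all 303 tested miRNAs, 11.2% were called higher and 4.29% lower. let-7-5p and let-7-3p had no matched position and are in no chromosome count, although let-7-3p was called higher. The 4 hairpins mir-229, mir-64, mir-65 and mir-66 lie within chromosome III, 2172452 to 2173206; of the 8 arms tested there 1 rose and 1 fell, both from mir-229.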
